A study of Arabidopsis thaliana with 8 samples.

Results

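The histone genes of *Arabidopsis thaliana* roots were followed in wild type and in a mutant of the heterotrimeric G protein α subunit (Gα), before and after treatment with extracellular ATP. Members were taken by the gene description in the deposited tables, which had to name histone H2A, H2B, H3, H4 or H1 and not an enzyme that methylates, demethylates, acetylates or deacetylates histones. Of 33544 genes in the tables, 34 had such a description and 27 of these reached 1 FPKM (a fragment count scaled to exon length and sequencing depth) in at least 1 of 4 conditions. The 27 genes were 3 of linker histone H1, 5 of H2A, 10 of H2B, 6 of H3 and 3 of H4. Just inside the minimum were the H2B gene HTB6, with a highest value of 2.04 FPKM, and the H3-like genes AT1G13370 with 2.57 FPKM and AT1G75600 with 2.72 FPKM. Just outside it were the sperm-cell H3 gene MGH3, with a highest value of 0.743 FPKM, and the H2A gene HTA4 with 0.566 FPKM.

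In plant chromatin, DNA is wrapped around an octamer of the core histones H2A, H2B, H3 and H4, and the linker histone H1 binds where the DNA enters and leaves this particle. Genes of the canonical core histones (H3.1 among them) are known for their expression in S phase, when new DNA has to be packaged, so their transcripts are abundant in dividing cells such as those of the root meristem. Some variants replace the canonical histones at particular places, such as H2A.Z near gene starts, H2A.W in heterochromatin, H3.3 in transcribed genes and CENH3 at centromeres. H2A.X is spread over the genome and is phosphorylated where DNA is damaged.

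The 4 conditions were untreated roots of the wild type Wassilewskija (WS), WS roots treated with ATP for 60 min, untreated roots of the Gα null mutant *gpa1-2*, and *gpa1-2* roots treated with ATP for 60 min. The labels give seedlings 4 days old and 2 biological replicates in each condition, 8 samples in all. The study's methods give a greater age than the labels, its texts differ on the ATP concentration and the labels give none. The tables hold 1 value per gene and condition, so no replicate error could be computed, no test was made, and every difference compares the libraries and not the conditions with their own spread. The mutant is a single allele, the treated seedlings were moved to ATP-containing medium while the labels place the untreated roots before treatment, and an effect of the transfer or of time cannot be told apart from that of ATP.

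The reads recovered from the steps of the deposited values numbered 11780805 in WS untreated, 12212964 in WS ATP, 11769876 in *gpa1-2* untreated and 13483769 in *gpa1-2* ATP. The transcript of GPA1, the gene of the Gα subunit, was measured at 51.9 FPKM in WS untreated, 46.5 in WS ATP, 28.6 in *gpa1-2* untreated and 31.1 in *gpa1-2* ATP, so it was lower in both mutant columns but not at 0. The summed level of 5 root meristem markers was 39.1 FPKM in WS untreated, 94.2 in WS ATP, 38.2 in *gpa1-2* untreated and 94.4 in *gpa1-2* ATP. WOX5, a gene of the quiescent centre, made up most of that difference, with 2.64 FPKM in WS untreated and 50.1 in WS ATP. The material is roots per the labels and root tips per the methods, both of which mix cell types, so more cells of a type and more RNA per cell cannot be told apart. Pollen and sperm markers summed to between 0.48 and 0.792 FPKM, with the pollen gene DUO1 at 0 in all 4 columns.

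Levels of the 27 genes spanned from 0.406 FPKM to 454 FPKM. Among the 27, the H2B gene HTB9 was the highest in all 4 conditions, with 395 FPKM in WS untreated, 378 in WS ATP, 353 in *gpa1-2* untreated and 454 in *gpa1-2* ATP. The H3.3 gene AT4G40040, outside the description rule, was higher, at 822, 748, 839 and 802 FPKM in the same order. The 4 highest members of each condition made up 42.4% of the members' summed FPKM in WS untreated, 39.3% in WS ATP, 43.2% in *gpa1-2* untreated and 40.4% in *gpa1-2* ATP. The median gene had 76.7, 78.5, 74.9 and 85.4 FPKM in the same order. Between 10 and 13 genes reached 100 FPKM, and 5 or 6 lay below 10 FPKM. Summed over the 27 genes, histone transcripts were 3037 FPKM in WS untreated, 3524 in WS ATP, 2845 in *gpa1-2* untreated and 3878 in *gpa1-2* ATP. The sum after ATP was therefore 1.16 times that before in WS and 1.36 times that before in *gpa1-2*, and the untreated mutant column was the lowest of the 4. The FPKM summed over all genes also differed between columns. As a share of that total, the members were 0.2846% in WS untreated, 0.3414% in WS ATP, 0.2697% in *gpa1-2* untreated and 0.3416% in *gpa1-2* ATP. On that scale the treated columns of WS and *gpa1-2* were alike.

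**Figure D1:**
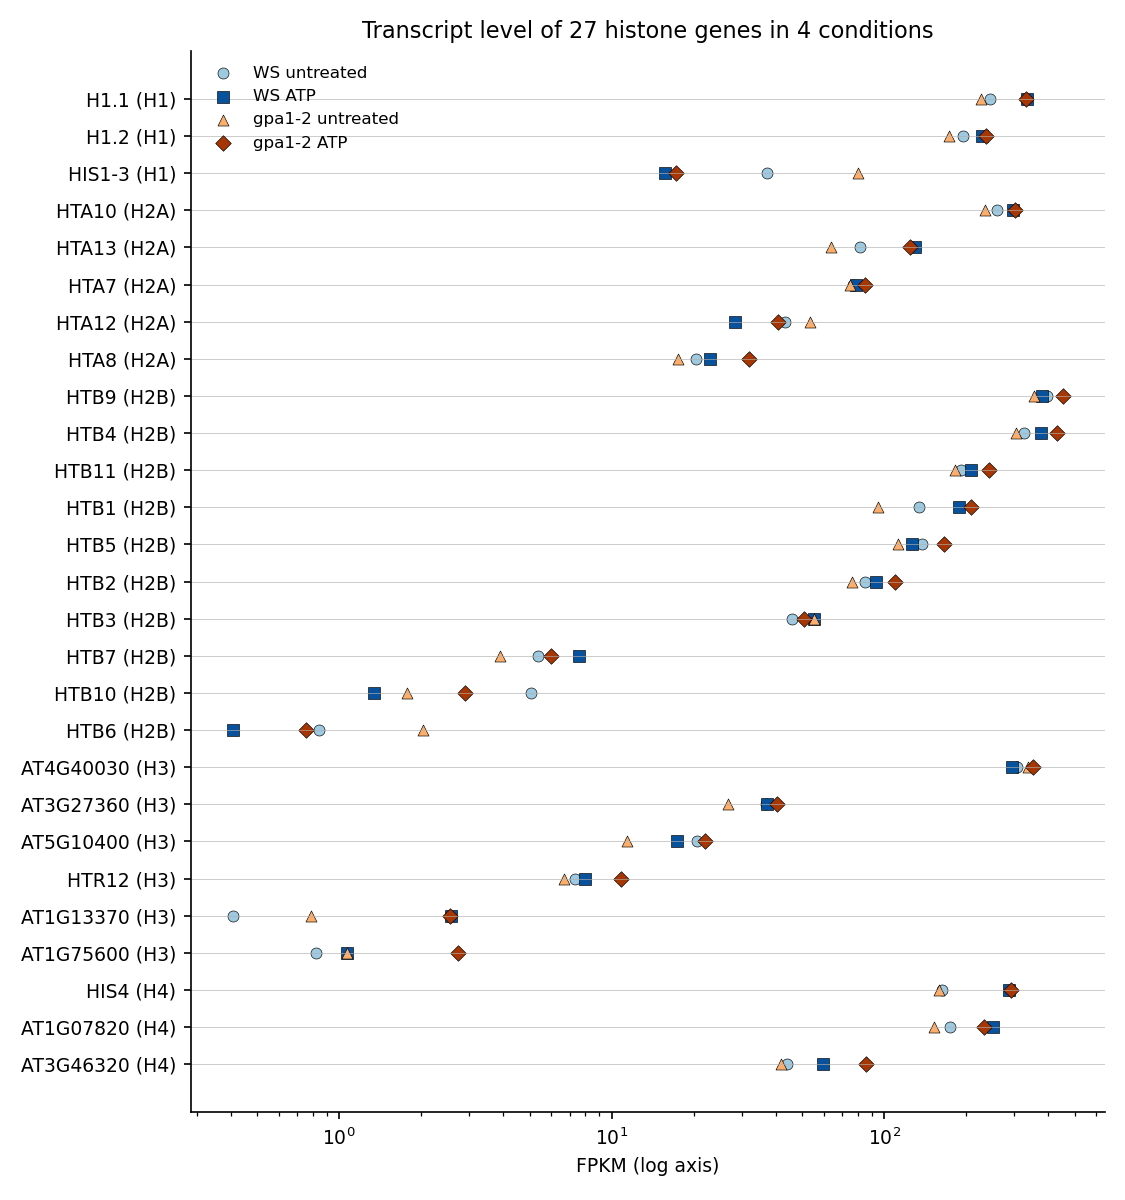
FPKM (log axis) of each of the 27 histone genes, ordered by histone class and mean level, with 1 point for each of the 4 conditions. HTB9 is the highest gene, 5 or 6 genes lie below 10 FPKM in each condition, and HIS1-3 is the gene with the widest gap between untreated and ATP-treated points among genes above 10 FPKM.

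The response to ATP was taken as log2(FPKM + 1) after ATP minus before, for genes that reached 1 FPKM before or after, and a gene was called when its response was at least 1 in size. This scale understates the change of low genes. In WS, 26 of the 27 genes were kept, since HTB6 stayed under 1 FPKM. The H3-like gene AT1G13370 was called higher and HIS1-3 and HTB10 were called lower, against 3.75% of all kept genes called higher and 4.28% called lower. AT1G13370 reached 1 FPKM only in its ATP-treated columns, so its membership came from the columns where it is high. In *gpa1-2*, all 27 were kept. HTB1 and the H4 gene AT3G46320 were called higher and HIS1-3 was called lower, where 3.6% of all genes were called higher and 3.78% lower.

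A smaller shift ran through most of the members. In WS, 19 of 26 genes had a response above 0 (49.1% of all genes did) with a median of 0.17, where the median of all genes was -0.01. In *gpa1-2*, 23 of 27 were above 0 (52.9% of all genes) with a median of 0.53, where the median of all genes was 0.03. Responses of at least 0.5 were found for 4 genes upward and 3 downward in WS, where 11.8% and 13.6% of all genes passed, and for 16 upward and 2 downward in *gpa1-2*, where 13.3% and 13.0% of all genes passed. AT1G13370 is among those upward in both genotypes and HTB6 among those downward in *gpa1-2*. Both are members only through the columns where they are high. The 95% interval of the read ratio, which covers counting error only, lay above 1 for 9 members and below 1 for 2 in WS (17.5% and 15.9% of all genes), and above 1 for 16 and below 1 for 2 in *gpa1-2* (20.4% and 15.8%).

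Gene length and level moved with these responses over all genes. In WS the median response was -0.11 in the shortest of 4 equal bins of gene length and 0.11 in the longest, while in *gpa1-2* it was 0.04 and -0.02. Of the genes averaging 50 FPKM or more, 44.2% had a response above 0 in WS and 68.0% in *gpa1-2*, with medians of -0.04 and 0.17. Of the 27 members, 23 lie in the bin of shortest genes and 16 average 50 FPKM or more, and the part of length and level in their responses was not tested.

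**Figure D2:**
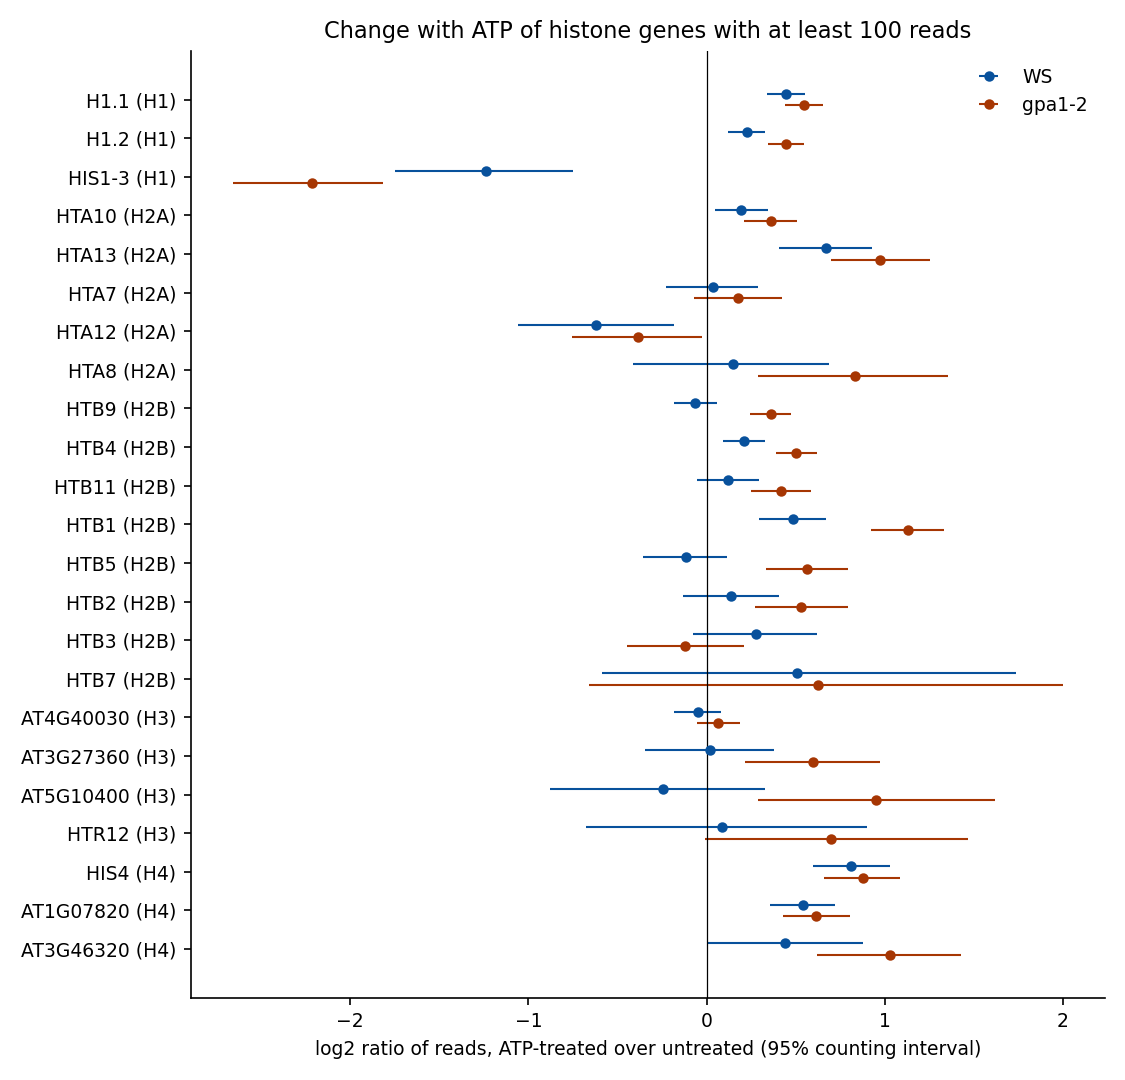
Change with ATP of the histone genes with at least 100 reads over all conditions, as the log2 ratio of reads of the ATP-treated over the untreated column, with its 95% counting interval, in WS (blue) and *gpa1-2* (brown). The 3 H4 genes, HTA13, HTB1, H1.1 and H1.2 lie to the right of 0 in both genotypes, and HIS1-3 and HTA12 lie to the left in both.

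The linker histones differed among themselves. H1.1 was at 245 FPKM in WS untreated, 334 in WS ATP, 226 in *gpa1-2* untreated and 330 in *gpa1-2* ATP. H1.2 was at 194, 228, 173 and 237 FPKM in the same order. Both major linker genes were higher in each ATP-treated column than in either untreated column, with read ratios of 1.36 (95% counting interval 1.26 to 1.47) and 1.46 (1.35 to 1.57) for H1.1 and of 1.17 (1.09 to 1.26) and 1.36 (1.27 to 1.46) for H1.2, in WS and *gpa1-2*.

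HIS1-3 encodes the third linker histone, H1.3, a short H1 that is known to be induced by drought and low light. It was at 37.1 FPKM in WS untreated, 15.7 in WS ATP, 80.1 in *gpa1-2* untreated and 17.3 in *gpa1-2* ATP, from 230, 100, 512 and 119 reads. Both ATP-treated columns were low and close to each other, and the untreated mutant column was the highest. The response was -1.19 in WS, with a read ratio of 0.424 (0.298 to 0.596), and -2.15 in *gpa1-2*, with a read ratio of 0.216 (0.158 to 0.285). As a share of the summed FPKM of the 3 linker genes, HIS1-3 was 7.79% in WS untreated, 2.73% in WS ATP, 16.7% in *gpa1-2* untreated and 2.96% in *gpa1-2* ATP. The summed level of 5 green tissue markers was 18.3, 9.41, 20.2 and 7.38 FPKM in the same order. It was thus also lower after ATP in both genotypes, from PSBO1 and RBCS1A in the main, and its part in the HIS1-3 difference was not tested.

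Among the H2A members, canonical HTA10 and HTA13 were higher after ATP in both genotypes. HTA10 was the highest H2A member, with 260 FPKM in WS untreated, 298 in WS ATP, 235 in *gpa1-2* untreated and 302 in *gpa1-2* ATP. HTA13 was at 81.3, 129, 63.5 and 125 FPKM, so its ATP-treated columns lay far above its untreated ones, with read ratios of 1.59 (1.33 to 1.90) in WS and 1.96 (1.62 to 2.38) in *gpa1-2*. The 2 members of the heterochromatic type H2A.W differed from these. HTA7 was at 76.7, 78.5, 74.9 and 84.9 FPKM, and both of its intervals included 1. HTA12 was at 43.4 FPKM in WS untreated, 28.3 in WS ATP, 53.2 in *gpa1-2* untreated and 40.8 in *gpa1-2* ATP, which made it, with HIS1-3, 1 of the 2 members lower after ATP in both genotypes among the 26 kept in both. Its read ratios were 0.651 (0.481 to 0.882) and 0.766 (0.591 to 0.982). The listed H2A.W gene HTA6, outside the rule, was at 136, 148, 104 and 174 FPKM, with a read ratio of 1.09 (0.953 to 1.25) in WS and 1.67 (1.45 to 1.91) in *gpa1-2*. The summed H2A.W ratio in *gpa1-2* was thus 0.98 over the 2 members and 1.29 with HTA6. The H2A.Z gene HTA8 was at 20.4, 22.8, 17.4 and 32.0 FPKM, with a response of 0.16 in WS and 0.84 in *gpa1-2*. The listed H2A.Z genes HTA9 and HTA11, outside the rule, were higher in level, at 251 and 67.8 FPKM in WS untreated. Their responses were -0.20 and -0.21 in WS and 0.08 and 0.16 in *gpa1-2*. The H2A.Z ratio was thus 1.12 in WS and 1.83 in *gpa1-2* for HTA8 alone, and 0.88 and 1.12 for the sum with HTA9 and HTA11.

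The 10 H2B genes formed the largest class by summed level among the members, with 1325 FPKM in WS untreated, 1435 in WS ATP, 1185 in *gpa1-2* untreated and 1671 in *gpa1-2* ATP. The ratio of these sums after to before ATP was 1.08 in WS and 1.41 in *gpa1-2*. HTB1 was at 134 FPKM in WS untreated, 188 in WS ATP, 95.1 in *gpa1-2* untreated and 208 in *gpa1-2* ATP. It had the highest response of the members in *gpa1-2*, 1.12 with a read ratio of 2.19 (1.90 to 2.51), and 0.48 in WS with a read ratio of 1.40 (1.22 to 1.59).

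HTB4 was at 325, 376, 304 and 431 FPKM and HTB11 at 191, 208, 182 and 242 FPKM, in the order WS untreated, WS ATP, *gpa1-2* untreated and *gpa1-2* ATP. HTB2 was at 85.0, 93.5, 75.8 and 110 FPKM. All 3 were lowest in the untreated mutant and highest in the treated mutant. HTB9 and HTB5 were slightly lower after ATP in WS and higher in *gpa1-2*. In WS the intervals of their read ratios, 0.880 to 1.04 and 0.781 to 1.08, included 1. HTB5 was at 137 FPKM in WS untreated, 126 in WS ATP, 112 in *gpa1-2* untreated and 166 in *gpa1-2* ATP. HTB3 went the opposite way, with 45.7, 55.3, 55.2 and 50.9 FPKM, and its intervals included 1 in both genotypes.

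The remaining H2B genes were near the floor of the measurement. HTB7 was at 5.35, 7.60, 3.89 and 6.01 FPKM. HTB10 was at 5.04, 1.34, 1.78 and 2.89 FPKM from 11, 3, 4 and 7 reads, so that its called response of -1.37 in WS had an interval of the read ratio from 0.00353 to 1.34. HTB6 was at 0.841, 0.409, 2.04 and 0.756 FPKM from at most 5 reads in a column. These 3 genes carry no difference that the counting error would show.

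The H3 members hold canonical H3.1, variant H3.3, CENH3 and H3-like genes. The H3.3 gene AT4G40030 was the highest, with 306 FPKM in WS untreated, 293 in WS ATP, 337 in *gpa1-2* untreated and 352 in *gpa1-2* ATP. Its responses of -0.06 and 0.06 were the closest to 0 of the members above 100 FPKM. The H3.1 members AT3G27360 and AT5G10400 differed between genotypes in the untreated columns. There the read ratios of mutant to WS had intervals of 0.552 to 0.955 and 0.339 to 0.875. In the treated columns the intervals, 0.853 to 1.37 and 0.852 to 1.91, included 1. AT3G27360 was at 36.8, 37.2, 26.7 and 40.3 FPKM and AT5G10400 at 20.6, 17.4, 11.4 and 22.0 FPKM, each lowest in the untreated mutant. AT5G10400 had a response of -0.23 in WS, with a read ratio of 0.845 (0.544 to 1.25), and of 0.89 in *gpa1-2*, with a read ratio of 1.93 (1.22 to 3.07).

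HTR12, the gene of the centromeric histone CENH3, was at 7.36 FPKM in WS untreated, 7.97 in WS ATP, 6.67 in *gpa1-2* untreated and 10.8 in *gpa1-2* ATP, from 57, 62, 52 and 91 reads. Its treated mutant column was the highest of the 4, and its read ratio was 1.06 (0.626 to 1.87) in WS and 1.62 (0.993 to 2.76) in *gpa1-2*. The H3-like gene AT1G13370, a member through its ATP-treated columns alone, was at 0.406, 2.57, 0.787 and 2.55 FPKM. Its treated columns were thus both above its untreated ones. This rested on 2, 13, 4 and 14 reads, and the intervals of its read ratio, 0.876 to 307 in WS and 0.618 to 32.0 in *gpa1-2*, included 1. AT1G75600 was at 0.825, 1.07, 1.07 and 2.72 FPKM from 3, 4, 4 and 11 reads.

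All 3 H4 members were higher after ATP in both genotypes, with intervals above 1 in each case. HIS4 was the highest, with 163 FPKM in WS untreated, 287 in WS ATP, 159 in *gpa1-2* untreated and 292 in *gpa1-2* ATP. AT1G07820 was at 174, 250, 153 and 232 FPKM. For both genes the genotypes were close to each other and the treatments apart, with read ratios in WS and *gpa1-2* of 1.76 (1.52 to 2.04) and 1.84 (1.58 to 2.12) for HIS4, and of 1.45 (1.28 to 1.65) and 1.53 (1.34 to 1.75) for AT1G07820. AT3G46320 was at 43.8, 59.4, 41.9 and 85.4 FPKM, with a ratio of 1.36 (1.00 to 1.84) in WS and of 2.04 (1.53 to 2.69) in *gpa1-2*. H4 had the highest ratio of summed FPKM among the 5 classes of members, 1.56 in WS and 1.72 in *gpa1-2*, and H3 the lowest, 0.966 and 1.12.

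Genes of H4, of H3.1 and of some H2B proteins are near-identical copies, and how the authors divided reads that fit several copies is not given in the sources used here. The division of a class between its genes is therefore uncertain, and sums over a class are less open to it than single genes. The loci of 7 members (H1.1, H1.2, HTA12, HTA13, HTB9, HTB10 and AT3G27360) overlap another gene in the annotation, and whether strand was used in counting is not stated, so their values may hold reads of the partner. HTA12 and HTB10 overlap each other.

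A further 18 histone genes, found by locus, had descriptions that did not name a histone class in the required words and lie outside the rule. All 18 reached 1 FPKM, and they were used to see whether the sums by type depended on the description. Their median response was 0.22 in WS, with 15 of 18 above 0, and 0.54 in *gpa1-2*, with 17 of 18 above 0. All kept genes had medians of -0.01 in WS and 0.03 in *gpa1-2*, with 49.1% and 52.9% above 0. Most of the 18 average 50 FPKM or more. All genes of that level had medians of -0.04 and 0.17, with 44.2% and 68.0% above 0. The part of level in the responses of the 18 genes was not tested. With them, the summed FPKM of the 8 H4 genes was 1058 in WS untreated, 1387 in WS ATP, 890 in *gpa1-2* untreated and 1532 in *gpa1-2* ATP, so that the ratio for H4 was 1.31 in WS and 1.72 in *gpa1-2*. The 5 H3.1 genes summed to 393, 438, 293 and 499.9 FPKM, ratios of 1.11 and 1.70. The 3 H3.3 genes summed to 1431, 1480, 1464 and 1577 FPKM, ratios of 1.03 and 1.08, and stayed close in all 4 conditions.

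Of the H3.1 and H3.3 transcripts together, H3.1 was 21.6% in WS untreated, 22.8% in WS ATP, 16.7% in *gpa1-2* untreated and 24.1% in *gpa1-2* ATP. The untreated mutant was the low value among the 4. Among H2A transcripts, H2A.Z was 25.3%, 19.9%, 24.7% and 20.5% in the same order and H2A.X 18.9%, 23.1%, 18.2% and 21.8%. Both shares split the columns by treatment and not by genotype, H2A.Z being lower and H2A.X higher after ATP. The H2A.X genes lie outside the rule: HTA5 was at 206, 262, 172 and 249 FPKM and HTA3 at 46.2, 84.5, 39.9 and 91.9 FPKM.

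**Figure D3:**
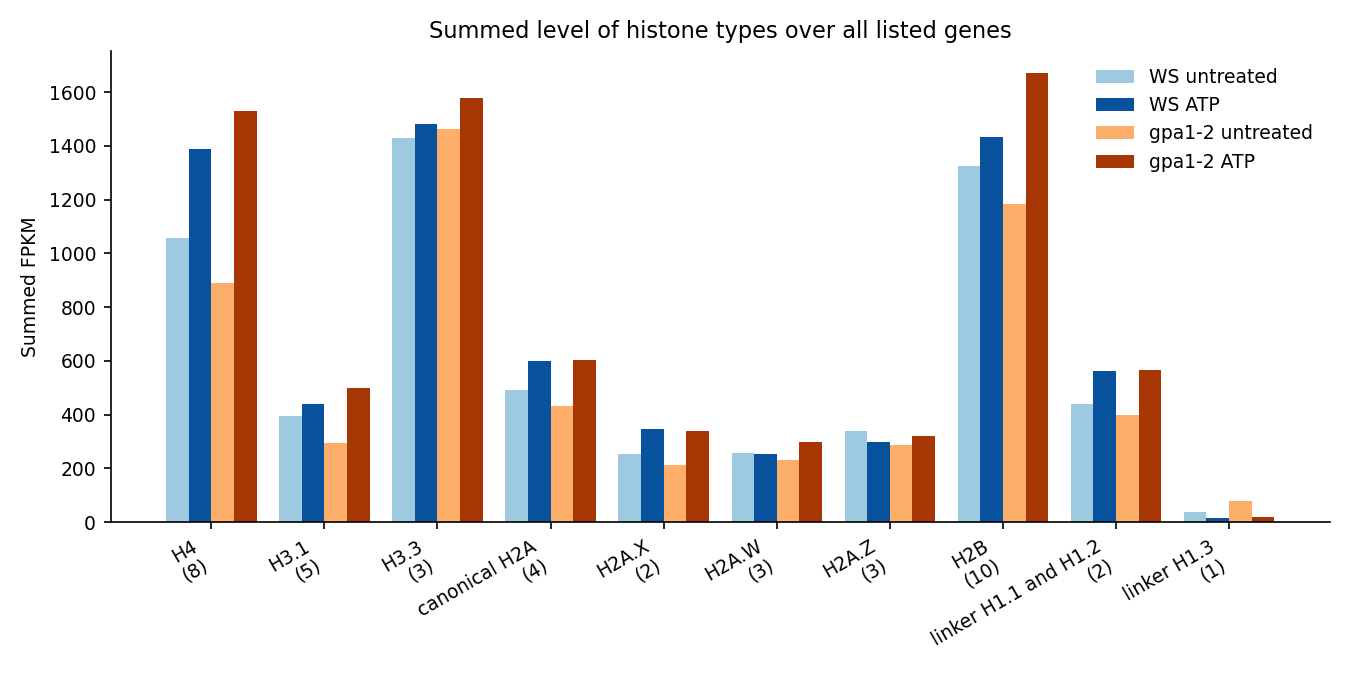
Summed FPKM (axis from 0) of 10 histone types over all listed genes of the type, within and outside the rule, with the number of genes in brackets and 1 bar for each condition. H4 and H3.1 have their lowest bar in untreated *gpa1-2* and their highest in ATP-treated *gpa1-2*, and the H3.3 bars run from 1431 to 1577 FPKM.

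The genotypes were then compared within each treatment. These comparisons use the same 4 columns as the ATP responses and are not independent of them. In untreated roots, *gpa1-2* minus WS was at least 1 for HIS1-3 upward (1.09) and for HTB10 downward (-1.12), out of 26 kept members, where 1.13% and 1.05% of all genes were called higher and lower. Differences of at least 0.5 were found for 2 members upward (5.03% of all genes) and 2 downward (4.72%). Those upward were HIS1-3 and HTB6, and HTB6 is a member only through its untreated *gpa1-2* column, with 5 reads against 2 in untreated WS. Those downward were AT5G10400 and HTB10, the latter with 4 reads against 11. In all, 6 of 26 members were above 0 (46.1% of all genes), and the median was -0.14, where that of all genes was -0.02. Of the genes averaging 50 FPKM or more, which 16 of the 27 members are, 35.8% were above 0, with a median of -0.07. With quantile normalization the members' median was -0.050. The interval lay below 1 for 7 members (9.59% of all genes) and above 1 for HIS1-3 and AT4G40030 (7.04% of all genes). HIS1-3 had a read ratio of mutant to WS of 2.16 (1.73 to 2.71), HTB1 of 0.708 (0.607 to 0.828), and the H3.1 gene AT5G10400 of 0.554 (0.339 to 0.875).

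In ATP-treated roots, no member passed 1 in either direction, where 1.29% of all genes were called higher and 1.38% lower. Differences of at least 0.5 upward were found for 4 members (7.27% of all genes) and downward for 0 (6.26%). Those upward were HTA12, AT3G46320, HTB10 and AT1G75600. HTB10 had 7 reads against 3 in WS ATP and AT1G75600 had 11 against 4, and the intervals of both ratios included 1. Of 26 members, 20 were above 0 (51.9% of all genes), with a median of 0.17 against 0.01 for all genes, or 0.079 with quantile normalization. The interval lay above 1 for 7 members (13.4% of all genes), among them HTB4 with a ratio of 1.14 (1.06 to 1.23) and HTB5 with 1.31 (1.13 to 1.53), and below 1 for 0 (11.5%). HIS1-3, which was called higher in untreated mutant roots, had a ratio here whose interval, 0.734 to 1.62, included 1. Over all genes, the median of this comparison was 0.14 in the bin of shortest genes and -0.13 in that of the longest, and 70.6% of the genes averaging 50 FPKM or more were above 0. The part of length and level in the members' difference was not tested.

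Subtracting the *gpa1-2* response from that of WS gave a value of at least 1 in size for HTB10 (-1.85) and AT5G10400 (-1.12), both negative, where 3.03% of all genes passed upward and 2.8% downward. It was above 0 for 4 of the 27 members (46.3% of all genes), with a median of -0.29 where that of all genes was -0.03 (-0.12 with quantile normalization), and at most -0.5 for 9 members (12.7% of all genes). HIS1-3 was the highest, with 0.96, its response being the more negative in the mutant. All genes averaging 50 FPKM or more had median responses of -0.04 in WS and 0.17 in *gpa1-2*. The bin of shortest genes had medians of -0.11 and 0.04. The part of length and level in the members' difference was not tested. The members' responses in WS and in *gpa1-2* share no column. Across the 26 members kept in both, which are not independent replicates, their Pearson correlation was 0.635 and Spearman's 0.535, with 18 genes higher after ATP in both, 2 lower in both and 6 with opposite signs. The shares of all genes with these sign patterns are not given, so the counts are not read as a result about histone genes. Without HIS1-3, Pearson's value was 0.48 over 25 genes. The counting intervals of the 2 read ratios did not overlap for 6 members, namely H1.2, HIS1-3, HTB9, HTB4, HTB1 and HTB5. This was so for 13.0% of all genes kept in both genotypes and for 41.7% of those averaging 50 FPKM or more. Whether these differences exceed the spread of biological replicates could not be tested.

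Other genes of DNA replication and of chromatin assembly were listed by name. The DNA replication list held 15 genes, among them the MCM genes of the replicative helicase, the sliding clamp genes PCNA1 and PCNA2 and the ribonucleotide reductase genes. None had a response of 1 in size in either genotype, where 3.75% and 4.28% of all genes were called higher and lower in WS and 3.6% and 3.78% in *gpa1-2*. In WS, 10 of 15 were above 0 (49.1% of all genes) with a median of 0.06, and in *gpa1-2* 14 of 15 (52.9% of all genes) with a median of 0.28. PCNA1 was at 20.8 FPKM in WS untreated, 21.4 in WS ATP, 18.0 in *gpa1-2* untreated and 25.3 in *gpa1-2* ATP. TSO2, a small subunit of ribonucleotide reductase, was the exception in the mutant and had the largest response of the list in WS, -0.62, with 38.0, 24.3, 35.7 and 29.8 FPKM. CDT1A, a replication licensing gene, had the largest in *gpa1-2*, 0.59, with 4.52 FPKM before and 7.31 after ATP.

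The list of 13 histone chaperone genes, whose proteins carry histones to and from DNA, had 7 genes above 0 in WS (49.1% of all genes) with a median of 0.06, and 13 of 13 in *gpa1-2* (52.9% of all genes) with a median of 0.14. The largest responses were 0.36 in WS for SPT16, a subunit of the FACT chaperone (20.2 and 26.4 FPKM), and 0.60 in *gpa1-2* for NRP2, a nucleosome assembly protein (31.4 and 48.2 FPKM). Of 11 mitosis genes, 1 was above 0 in WS (49.1% of all genes) with a median of -0.22. The counting interval in WS lay below 1 for 5 (15.9% of all genes) and above 1 for 1 (17.5%). In *gpa1-2*, 5 of 11 were above 0 (52.9% of all genes) with a median of -0.07. The interval there lay below 1 for 0 (15.8% of all genes) and above 1 for 0 (20.4%). The kinase gene AUR2 was at 13.2 FPKM in WS untreated, 7.63 in WS ATP, 13.5 in *gpa1-2* untreated and 11.3 in *gpa1-2* ATP. CDC20.1, an activator of the anaphase-promoting complex, was the mitosis gene above 0 in WS, with 8.90 and 13.0 FPKM.

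**Figure D4:**
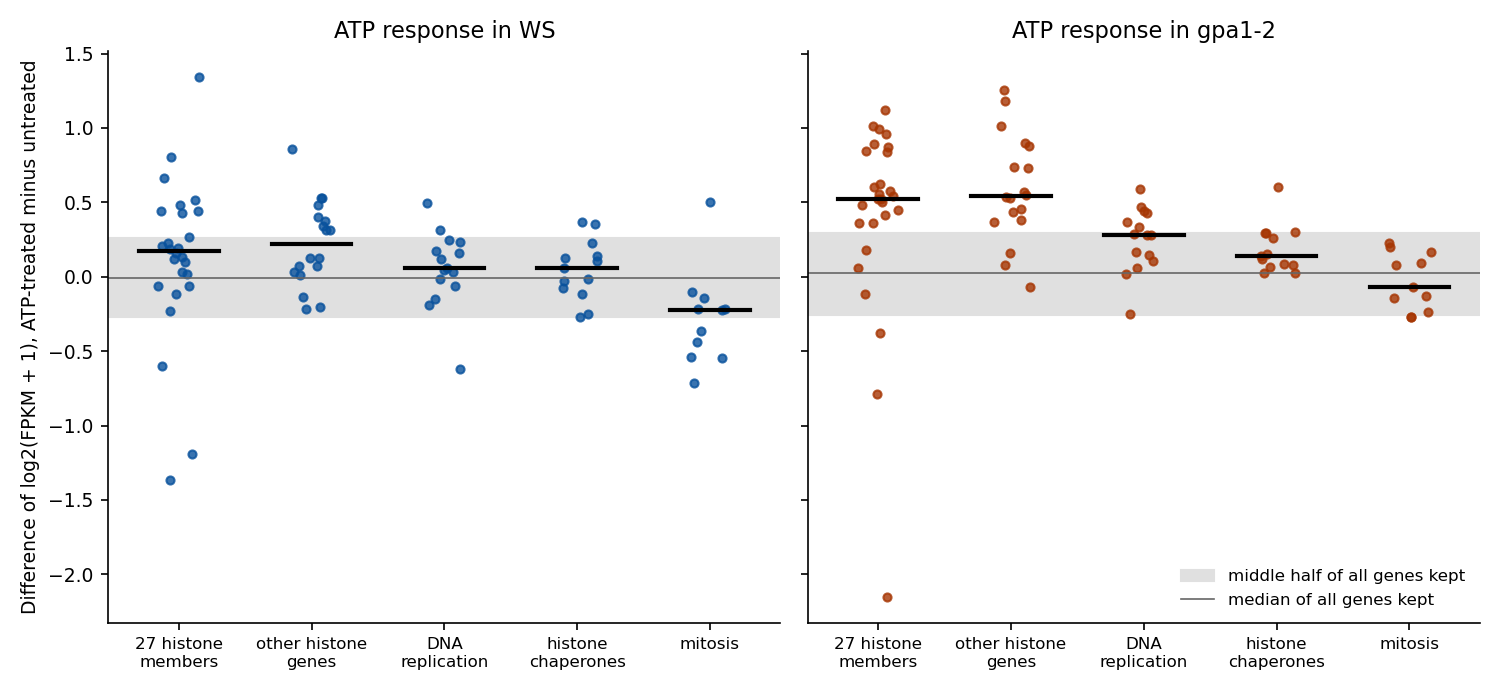
Response to ATP on the log2(FPKM + 1) scale, treated minus untreated column, for each kept gene of the histone members, the other histone genes and 3 gene lists, in WS (left) and *gpa1-2* (right). Black bars are medians, and the grey band and line give the quartiles and the median of all kept genes. The histone medians are 0.17 and 0.22 in WS and 0.53 and 0.54 in *gpa1-2*, and the mitosis median is below that of all genes in both.

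The members lie on all 5 chromosomes, with 7 on chromosome 1, 6 on chromosome 2, 7 on chromosome 3, 1 on chromosome 4 and 6 on chromosome 5. Some stand close to another histone gene. HTB3 and HIS4, with 1 coding gene between them, had responses of 0.27 and 0.81 in WS and of -0.12 and 0.87 in *gpa1-2*. HTB1 and AT1G07820, with 2 coding genes between them, had 0.48 and 0.51 in WS and 1.12 and 0.60 in *gpa1-2*. The overlapping genes HTA12 and HTB10 had -0.60 and -1.37 in WS and -0.38 and 0.48 in *gpa1-2*. HTB9 and HTB11, with 4 coding genes between them, had -0.06 and 0.12 in WS and 0.36 and 0.41 in *gpa1-2*. Some neighbours thus had responses close to each other and others did not, and the values of HTB10 rest on 3 to 11 reads.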

How the data were processed

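Roots of WS and *gpa1-2* were sampled in 4 conditions with 2 labelled replicates each. The authors deposited 2 tables, 1 per genotype, each with 1 column per condition of gene counts as a scaled signal and 1 of FPKM. They also deposited a p-value and an FDR and a log2 fold change per gene from their own comparison, which were not used. Column names hold only a sample number, and the columns were assigned by the genotype of the table and by how many genes it marks as up or down. The labels and methods describe arrays, and the submitters' processing notes name MAS5, whereas the files hold measures of sequencing. The aligner, annotation, genome build and counting rule are not given in the sources used here, and 0 per-sample columns were left unused.

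Differences of log2(FPKM + 1) were computed for genes that reached 1 FPKM in a condition compared and called from 1 in size. Whole reads were recovered within 0.1 read from the steps of the scaled counts for at least 98.9% of the values of up to 20 reads. Higher values were divided by the mean step and rounded, and their recovery was not checked. Each column proved to be a sum of 2 parts that shared low counts much more equally than 2 independent libraries would (81.4% of the genes with 16 reads were 8 and 8 in *gpa1-2* ATP, against 19.6% by binomial chance). Reads were therefore halved before exact 95% intervals of a ratio were computed. The precision follows from 5884938 to 6741885 reads per part. These intervals cover counting error only.

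The members and gene lists were chosen with earlier results of these data known. Named are the highest gene of each type, the linker histones, CENH3, genes at least 1 in size in a comparison and the 3 largest rises and falls per genotype with at least 20 reads. The other members are also given by name, chosen after their values were seen. HTA and HTB names came from the descriptions in the tables, the types of listed genes from a list by locus, and 32797 of the 33544 identifiers had an entry in a RefSeq gene table. Alternatives were pseudocounts of 0.1 and 5, other filters, scalings and thresholds, the list by locus and members without overlapping genes. Scaled counts in place of FPKM were added after the data were seen. Calling was tested on simulated data in which 200 genes were changed. Intervals were tested on simulated pairs of counts with means of at least 20 reads and a single fixed ratio, so not at the lowest counts. The division of reads between the 2 parts was tested on combinations of low counts. The scripts used Python 3.11.15, pandas 2.3.3, matplotlib 3.10.9, scipy 1.17.1 and numpy 2.4.6.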

Additional observations from a re-analysis of the deposited data

Results flagged for a closer look

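In 6 members the ATP-treated column lay on the opposite side of the untreated column in the 2 genotypes, and this is why they are listed. The share of all genes with such opposite signs is not given, and the difference between genotypes was not tested. For HTB10, an H2B gene with 3 to 11 reads in a column, the response in WS minus that in *gpa1-2* was -1.85. For the H3.1 gene AT5G10400 it was -1.12, from -0.23 in WS and 0.89 in *gpa1-2*. The H2B genes HTB5 and HTB9 differed by -0.67 and -0.42, being lower after ATP in WS (-0.12 and -0.06) and higher in *gpa1-2* (0.56 and 0.36). The H2B gene HTB3 had the reverse pattern and a difference of 0.39. The H3.3 gene AT4G40030 differed by -0.12, with both responses near 0. In 0 of the 6 genes did the counting intervals exclude 1 in both genotypes.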

How the results depend on the processing

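The median responses and differences of the members kept their sign in all 55 alternatives, and 3 of them moved by over 1.5 times, all under quantile normalization, to -0.050 for untreated genotypes, 0.079 for treated genotypes and -0.12 for WS minus *gpa1-2*. The medians ranged from 0.13 to 0.19 in WS, from 0.40 to 0.56 in *gpa1-2*, from -0.17 to -0.050 for untreated and from 0.079 to 0.19 for treated mutant against WS, and from -0.33 to -0.12 for WS minus *gpa1-2*. Counts of members past the threshold are small, 3 in WS, 3 in *gpa1-2*, 2 for untreated genotypes, 0 for treated genotypes and 2 for the difference of responses, and 25 of 65 alternative counts moved by over 1.5 times. With a threshold of 0.5 they were 7, 18, 4, 4 and 10 in that order, and with 2 they were 0, 1, 0, 0 and 0. All these counts take up and down together. Apart from the shares of all genes given above at thresholds of 1 and 0.5, no share is given. The counts under other settings are therefore not read as a result about the members. A pseudocount of 0.1 gave 6 in *gpa1-2* and 2 for treated genotypes, and a pseudocount of 5 gave 1 in WS, 1 for untreated genotypes and 0 for the difference. A filter at 10 FPKM and a minimum of 20 reads in the 2 conditions compared each gave 1 in WS, 1 for untreated genotypes and 1 for the difference. Taking histones by locus gave 6 in *gpa1-2*. Leaving out members that overlap another gene gave 1 for untreated genotypes and 1 for the difference. Scaled counts, chosen after seeing the data, gave 5 in *gpa1-2* and 1 for treated genotypes. Except through the construction of a setting (fewer genes, another threshold), the cause was not tested. No paired analysis was possible because the columns hold 1 value per condition and carry no replicate number, and for the same reason no replicate could be left out. Depth limits genes below 10 FPKM, of which HTB10, HTB6, AT1G13370 and AT1G75600 had at most 14 reads in a column.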
